A study of Mus musculus with 2 samples.

Results

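The genes described are the mouse Wnt ligands, their Frizzled receptors and LRP co-receptors, and the secreted proteins that hold Wnt signalling back or raise it. A protein-coding gene was taken when its GENCODE symbol was Wnt, Fzd, Sfrp or Dkk followed by a number, or was Frzb, Wif1, Lrp5, Lrp6, Notum or Rspo1 to Rspo4, and it was matched to the tables by Ensembl ID. The rule gave 46 of the 21474 protein-coding genes, among 43346 gene IDs in all. By role they were 19 Wnt ligands, 10 Frizzled receptors, 2 LRP co-receptors, 6 Wnt-binding antagonists (Sfrp1, Sfrp2, Sfrp4, Sfrp5, Frzb and Wif1), 4 Dickkopfs, the Wnt hydrolase Notum and 4 R-spondins.

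Total RNA was sequenced from skeletal muscle of 2 newborn B6NCrl mice at postnatal day 0, 1 library per pup, both from 1 pregnancy. No treatment or engineered allele is given in the labels, the muscle is not named, sex was not collected, and both pups carry the same donor entry. Gene counts came to 40454600 in replicate 1 and 37150684 in replicate 2, of which the 46 genes took 0.0579% and 0.0538%. With 1 library per pup in a single group, no test between conditions was possible, so levels are given per pup and as a mean ± SD (n = 2), and the ratio between the pups carries an exact 95% Clopper-Pearson interval that covers counting error only.

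Wnt proteins are lipid-modified secreted ligands. They bind a Frizzled receptor together with LRP5 or LRP6 and stabilise beta-catenin, which acts with TCF/LEF factors on target genes, or they act through Frizzled, ROR and RYK receptors on cell polarity and movement. In skeletal muscle, Wnt signals are known for roles in the formation of muscle precursors, in fibre growth and in the assembly of the neuromuscular junction.

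The tissue label was checked against its markers, and the libraries were compared for RNA of other tissues. All 12 skeletal muscle markers exceeded 1 TPM in both pups, a unit that corrects counts for transcript length and scales each library to the same total. They were led by Acta1, Mylpf and Ckm, and their summed level was 104645 TPM in replicate 1 and 115611 TPM in replicate 2. Replicate 1 stood apart in markers of skin, cartilage and fat. The 14 epidermis and hair follicle markers summed to 502 TPM in replicate 1 and 10.3 TPM in replicate 2, the 14 cartilage markers to 79.0 and 9.61 TPM, and the 10 adipocyte markers to 8327 and 2303 TPM. Of the adipocyte sums, Car3, a gene not confined to fat, held 3199.95 and 1403.38 TPM. Results are therefore given for each pup alone. In a bulk sample, fewer cells of a type and less RNA per cell cannot be told apart.

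Promoter sequences are shown for the leading antagonists Sfrp2 and Frzb and for both annotated starts of Wnt11, the ligand highest by gene level. Promoter sequences of the neighbouring ligands Wnt9a and Wnt3a, which differ in level, are shown too. Each runs 5′ to 3′ on the gene's strand from 250 bases before the start site to 50 bases after it, from RefSeq on build GRCm38.p6. Capitals mark matches to motifs searched on both strands, which do not overlap in the windows shown. CAGCTG is an E-box of the kind bound by MyoD family factors. The core bound by TCF/LEF factors was searched as CTTTGA, which reads TCAAAG on the other strand. The TATA element was searched as TATAAA, which reads TTTATA on the other strand. The Sfrp2 promoter is chr3:83766071-83766370 (plus strand), Frzb chr2:80447347-80447646 (minus), Wnt11 first start chr7:98834862-98835161 (plus), Wnt11 second start chr7:98838595-98838894 (plus), Wnt9a chr11:59306680-59306979 (plus) and Wnt3a chr11:59290702-59291001 (minus).
Sfrp2: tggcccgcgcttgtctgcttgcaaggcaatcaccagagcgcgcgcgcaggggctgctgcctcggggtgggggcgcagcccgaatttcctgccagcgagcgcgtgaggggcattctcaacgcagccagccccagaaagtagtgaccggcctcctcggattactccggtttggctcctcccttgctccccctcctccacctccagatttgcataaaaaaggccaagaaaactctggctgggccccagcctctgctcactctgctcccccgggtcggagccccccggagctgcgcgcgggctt
Frzb: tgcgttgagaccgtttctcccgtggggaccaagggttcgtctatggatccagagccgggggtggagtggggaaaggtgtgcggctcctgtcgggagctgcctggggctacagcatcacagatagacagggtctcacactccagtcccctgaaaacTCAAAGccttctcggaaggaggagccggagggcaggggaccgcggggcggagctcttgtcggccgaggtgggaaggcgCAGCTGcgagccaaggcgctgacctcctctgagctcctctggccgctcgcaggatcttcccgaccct
Wnt11 first start: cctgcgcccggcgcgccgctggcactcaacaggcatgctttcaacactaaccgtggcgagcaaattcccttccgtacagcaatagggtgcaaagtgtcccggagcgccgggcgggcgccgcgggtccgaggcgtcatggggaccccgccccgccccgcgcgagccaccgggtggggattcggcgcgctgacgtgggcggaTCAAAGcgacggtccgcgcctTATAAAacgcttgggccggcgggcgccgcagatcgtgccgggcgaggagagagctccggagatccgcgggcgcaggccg
Wnt11 second start: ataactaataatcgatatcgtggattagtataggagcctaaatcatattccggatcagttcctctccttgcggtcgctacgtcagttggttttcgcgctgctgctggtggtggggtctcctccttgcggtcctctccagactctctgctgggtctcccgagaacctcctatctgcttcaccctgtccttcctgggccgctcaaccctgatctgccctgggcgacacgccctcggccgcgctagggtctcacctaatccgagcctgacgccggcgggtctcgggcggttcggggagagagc
Wnt9a: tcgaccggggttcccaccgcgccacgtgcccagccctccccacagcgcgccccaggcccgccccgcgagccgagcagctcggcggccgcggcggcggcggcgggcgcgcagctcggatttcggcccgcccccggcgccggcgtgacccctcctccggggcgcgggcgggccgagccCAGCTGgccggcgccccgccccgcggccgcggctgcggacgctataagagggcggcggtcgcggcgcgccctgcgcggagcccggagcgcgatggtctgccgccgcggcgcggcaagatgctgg
Wnt3a: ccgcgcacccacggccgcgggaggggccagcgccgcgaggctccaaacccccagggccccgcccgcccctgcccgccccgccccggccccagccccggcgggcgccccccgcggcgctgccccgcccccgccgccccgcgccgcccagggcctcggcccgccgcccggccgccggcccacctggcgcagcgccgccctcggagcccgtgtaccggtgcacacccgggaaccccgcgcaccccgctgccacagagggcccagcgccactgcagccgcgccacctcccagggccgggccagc

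In these windows Frzb held the TCF/LEF core 95 bases and the E-box 17 bases before its RefSeq start. That start lies 229 bases downstream of the first base of Frzb-201, the leading GENCODE transcript, so both matches lie after the start of that form. For Sfrp2, the second Wnt11 start and Wnt9a, the RefSeq start is the first base of the leading transcript. The first Wnt11 start had the TCF/LEF core at 50 bases and the TATA element at 29 bases before it, and Wnt9a had the E-box at 74 bases before it. The Sfrp2, second Wnt11 and Wnt3a windows held none of these letters, which says only that the letters are not in the window. A match is likewise a description of letters and not a shown binding site.

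Promoter entries existed for 29 of the 46 genes, with 32 windows. Their base composition differed from that of promoters at large, with a median of 26.5 CpG dinucleotides and 67.8% GC per window, against 7.00 and 52.7% over all 32851 windows. Those windows belong to 27025 genes, more than the 21474 protein-coding genes, so the wider set is not matched in gene type. No motif was in many of the windows. The E-box lay in 3 of 32 windows (9.38%) against 16.3% of all, the TCF/LEF core in 5 (15.6%) against 16.0%, and the TATA element in 5 (15.6%) against 13.6%. CpG content did not separate the genes by level: the median was 27.0 over the 17 genes with an entry at 1 TPM or more and 29.0 over the 12 below it, each gene by its richest window.

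Of the 46 genes, 29 reached a mean of 1 TPM (63.0%), close to the 58.2% of all protein-coding genes, and their median level was 2.22 TPM against 2.59 TPM. By pup alone the number was 29 in replicate 1 and 28 in replicate 2. The roles were unequal. All 6 Wnt-binding antagonists, both LRP co-receptors and 9 of 10 Frizzled receptors reached 1 TPM, against 8 of 19 Wnt ligands (42.1%), 2 of 4 Dickkopfs and 1 of 4 R-spondins. No role other than the Wnt ligands changed its number between the pups (8 in replicate 1 and 7 in replicate 2).

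**Figure D1:**
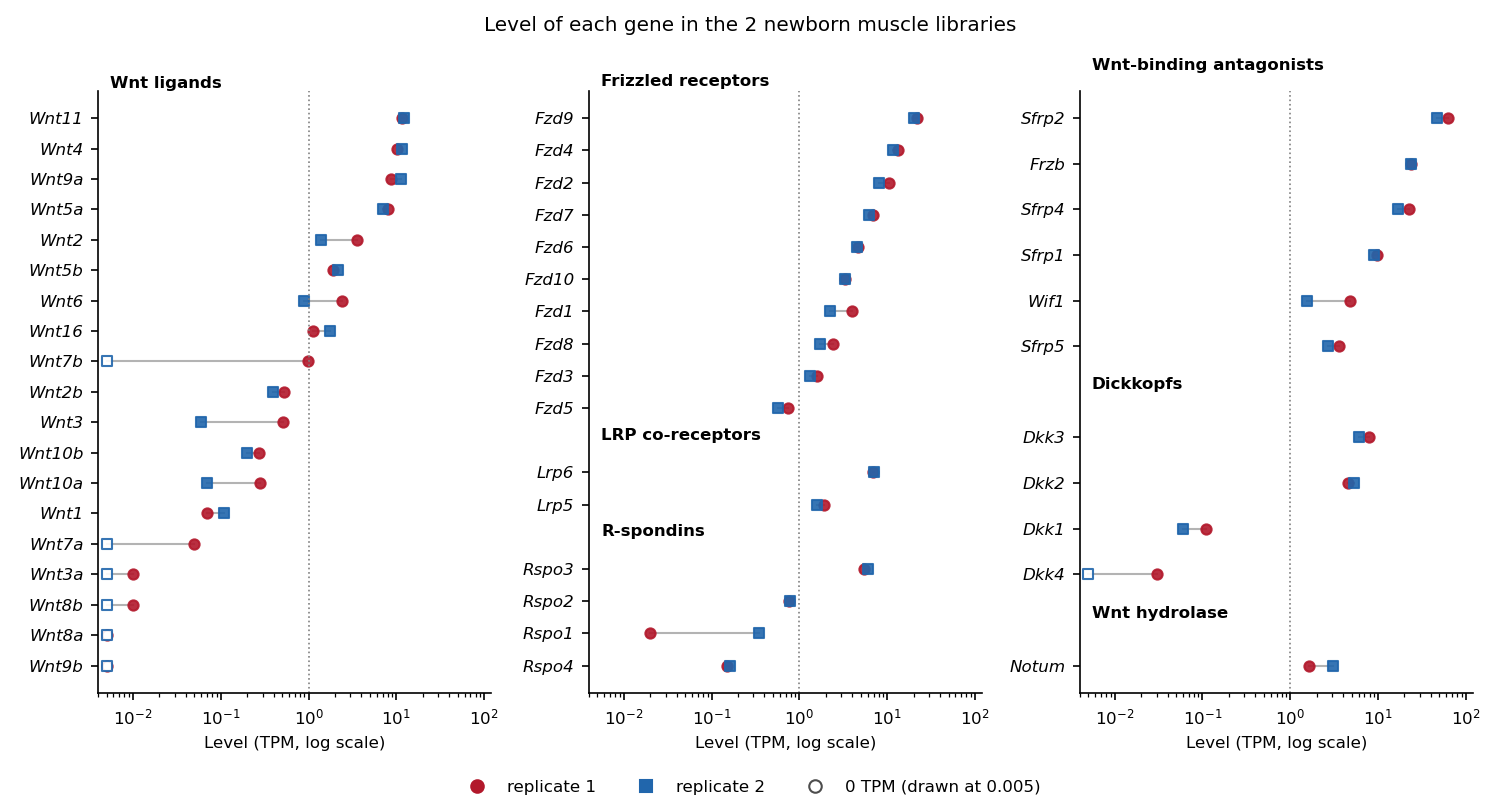
Level of each of the 46 genes in TPM (horizontal, log scale) by role, with a circle for replicate 1 and a square for replicate 2, joined by a line. Open symbols at the left edge stand for 0 TPM, and the dotted line marks 1 TPM. Antagonists and Frizzled receptors lie mostly to the right of the line, while 11 of 19 Wnt ligands lie to its left on average. Wnt7b is at 0.98 TPM in replicate 1 and 0 in replicate 2.

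Wnt ligand expression was carried by 4 genes. Wnt11, which is known for signalling that does not need beta-catenin, stood at 11.65 TPM in replicate 1 and 12.33 TPM in replicate 2 (12.0 ± 0.481 TPM, SD, n = 2), the highest of the ligands in both pups. Wnt4, known in muscle and kidney development, stood at 10.06 and 11.55 TPM. Wnt9a, known from joint formation, stood at 8.72 and 11.23 TPM. Wnt5a, the best-known ligand of the beta-catenin-independent arm, stood at 8.12 and 7.05 TPM. The order of these ligands was the same in both pups, but Wnt4 and Wnt9a overlapped between pups. Wnt11 cleared Wnt4 by only 11.65 against 11.55 TPM. The Wnt11 level also includes forms annotated as targets of nonsense-mediated decay, with Wnt11-202 at 33.57% in replicate 1 and 24.47% in replicate 2. By the quantifier's split, the coding forms of Wnt11 alone would lie below Wnt4 and Wnt9a in both pups. Wnt11, Wnt4 and Wnt9a together made up 60.5% of the summed Wnt level in replicate 1 and 71.3% in replicate 2.

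Next came a group of 4 ligands whose order the pups did not settle. Wnt2, a ligand of the beta-catenin arm, was at 3.61 and 1.39 TPM, and Wnt5b, the close relative of Wnt5a, at 1.92 and 2.18 TPM. Wnt6, known from surface ectoderm, was at 2.40 and 0.900 TPM, and Wnt16, known for its role in cortical bone, at 1.12 and 1.78 TPM. Each overlapped its neighbour in rank, and Wnt2 led them in replicate 1 while Wnt5b led in replicate 2.

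The other 11 ligands averaged under 1 TPM. Wnt7b, Wnt2b, Wnt3, Wnt10b and Wnt10a had mean levels from 0.175 to 0.490 TPM. Wnt1 had 5 and 7 counts, Wnt7a had 5 and 0, and Wnt3a and Wnt8b had 1 count each in replicate 1 and 0 in replicate 2. Wnt8a and Wnt9b had 0 counts in both pups, which allows up to 0.061 and 0.064 TPM for Wnt8a and up to 0.023 and 0.024 TPM for Wnt9b (3 counts per library). These include the ligands best known from the early embryo and nervous system, Wnt1, Wnt3a and Wnt8a.

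Several Wnt genes sit beside each other in the genome, and neighbours could differ widely in level. Wnt3a and Wnt9a lie 16176 bases apart on chromosome 11 in opposite directions. Wnt9a was at 8.72 and 11.23 TPM while Wnt3a was at 0.01 and 0 TPM, although both promoter windows shown above are rich in CpG (58 and 45). Wnt9b and Wnt3, 24329 bases apart on the same chromosome, were at 0 in both pups and at 0.51 and 0.06 TPM. Wnt10b and Wnt1, 11707 bases apart on chromosome 15, were both low, at 0.27 and 0.20 TPM and at 0.07 and 0.11 TPM. Wnt6 and Wnt10a, 6194 bases apart on chromosome 1 and in the same direction, were both lower in replicate 2.

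Nearly all Frizzled receptors were present, and their order was nearly the same in both pups. Fzd9 led with 21.62 and 19.98 TPM (20.8 ± 1.16 TPM, SD, n = 2), followed by Fzd4, which also binds norrin and is known from blood vessels, at 13.16 and 11.56 TPM. Fzd2 was at 10.46 and 8.16 TPM, and Fzd7, known as a receptor on muscle stem cells, at 6.96 and 6.23 TPM. Each of these exceeded the next in every pairing of pups. Fzd6, known from hair patterning, and Fzd10 followed at means of 4.61 and 3.33 TPM.

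Fzd1 was at 4.01 and 2.24 TPM and overlapped both Fzd10 and Fzd8, so its place was not settled. Fzd8 had a mean of 2.08 TPM and Fzd3, a receptor known from axon guidance, one of 1.45 TPM. Fzd5 was the lowest receptor, at 0.74 and 0.57 TPM. The leading Fzd9 made up 31.4% and 33.5% of the summed receptor level. Of the co-receptors, Lrp6 at 6.82 and 7.08 TPM exceeded Lrp5 at 1.91 and 1.59 TPM, and held 78.1% and 81.7% of their sum.

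Wnt-binding antagonists had the highest levels of all roles. These proteins hold Wnts outside the cell, the SFRPs and FRZB through a domain like that of Frizzled and WIF1 through a WIF domain. Sfrp2 (chromosome 3, 83766321-83774316, plus strand) stood at 61.98 TPM in replicate 1 and 47.05 TPM in replicate 2 (54.5 ± 10.6 TPM, SD, n = 2), the highest of the 46 genes, at percentile 90.6 of protein-coding genes. Frzb, also called Sfrp3 and known from cartilage, was at 23.97 and 24.05 TPM, and Sfrp4 at 22.65 and 16.88 TPM. Sfrp1 followed at 9.64 and 9.07 TPM. Every one of these exceeded the next in both pups, and Sfrp2, Frzb and Sfrp4 together held 85.8% and 86.8% of the antagonists' sum. Wif1 at 4.79 and 1.57 TPM and Sfrp5 at 3.57 and 2.71 TPM overlapped, with the order turned between the pups.

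Dickkopfs other than Dkk3 act on the LRP co-receptors rather than on Wnts. Dkk3, the divergent member of the family, was at 7.89 and 6.01 TPM, and Dkk2 at 4.58 and 5.28 TPM, with no overlap. Dkk1, the classical inhibitor of LRP5 and LRP6, had 8 and 4 counts (0.11 and 0.06 TPM), and Dkk4 had 1 and 0. Dickkopf expression was thus that of Dkk3 and Dkk2, with Dkk1 near its counting floor.

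Notum (chromosome 11, 120653788-120661175, minus strand), which removes the lipid from Wnts, was at 1.62 TPM in replicate 1 and 3.10 TPM in replicate 2. R-spondins raise Wnt signalling by taking the ZNRF3 and RNF43 ubiquitin ligases off the receptors. Rspo3 was the main one, at 5.45 and 6.04 TPM, and made up 85.4% and 82.3% of their sum. Rspo2, known for its part at the neuromuscular junction, was at 0.76 and 0.79 TPM. Rspo4, known from nail growth, was at 0.15 and 0.16 TPM, and Rspo1, known from ovary formation, at 0.02 and 0.35 TPM.

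Summed by role, the Wnt-binding antagonists exceeded ligands and receptors in both pups. Sfrp2 alone held 49.0% of the antagonists' sum in replicate 1 and 46.4% in replicate 2. Without Sfrp2, the antagonists would still exceed the ligands but not the Frizzled receptors, in either pup. They reached 127 TPM in replicate 1 and 101 TPM in replicate 2 (114 ± 17.9 TPM, SD, n = 2), the Frizzled receptors 69.0 and 59.6 TPM, and the Wnt ligands 50.3 and 49.2 TPM. The Dickkopfs came to 12.6 and 11.4 TPM, the LRP co-receptors to 8.73 and 8.67 TPM, and the R-spondins to 6.38 and 7.34 TPM. The log2 ratio of antagonists over ligands was 1.33 in replicate 1 and 1.04 in replicate 2 (1.19 ± 0.21, SD, n = 2), and that of antagonists over receptors 0.88 and 0.76 (0.82 ± 0.079). Receptors over ligands came to 0.45 and 0.28 (0.37 ± 0.13). These ratios are of TPM, which is per transcript length. From CPM, which scales counts to the library without the length correction, the log2 ratio of antagonists over ligands was 0.72 and that of antagonists over receptors 0.27.

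**Figure D2:**
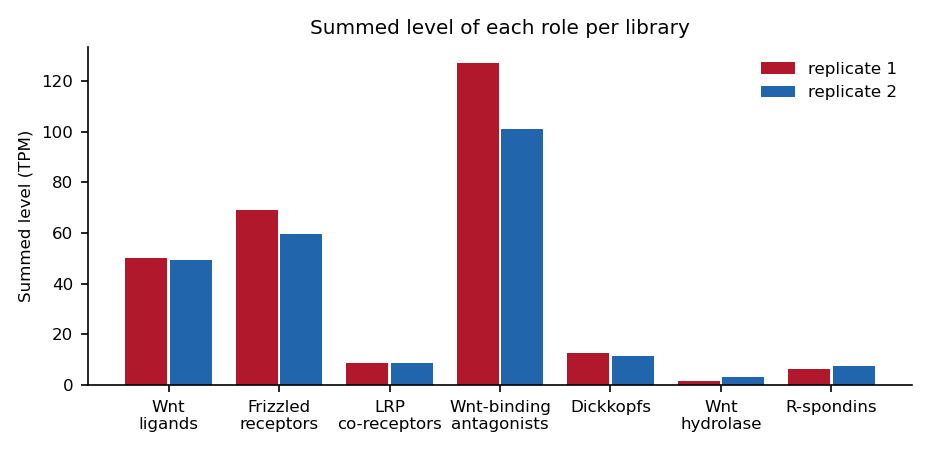
Summed level (vertical, TPM) of the genes of each role in replicate 1 (red) and replicate 2 (blue), with 1 library per bar. The Wnt-binding antagonists are the tallest pair at 127 and 101 TPM, of which Sfrp2 alone holds 49.0% and 46.4%. The Frizzled receptors are at 69.0 and 59.6 TPM and the Wnt ligands at 50.3 and 49.2 TPM.

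The pups were compared by the log2 ratio of counts, replicate 2 over replicate 1, scaled by the trimmed mean of M-values (TMM). A gene was called when it differed by at least 2-fold, its mean count was at least 10 and its counting interval excluded 1. Of the 37 genes with enough counts, 6 were higher in replicate 1 (16.2%), where 4.95% of all 17004 such genes were, and 1 was higher in replicate 2 (2.70%), where 1.48% of all were. Most calls fell on the ligands: 5 of the 13 Wnt genes with enough counts were higher in replicate 1 (38.5%), against 1 of 6 antagonists and none of the 10 Frizzled receptors and 2 LRP co-receptors. The roles also differed in counts, and Wnt7b, Wnt3, Wnt10a and Wnt6 had mean counts under 100. With a mean count of at least 100, 28 of the genes remained. Only Wnt2 of the ligands and Wif1 of the antagonists were then called higher in replicate 1, where 2.31% of all such genes were. The calls on Wnt7b, Wnt3, Wnt10a and Wnt6 were thus of genes below that count, and why the ligands held more calls was not tested. The median log2 ratio of the 37 was -0.05, against -0.01 over all genes. With 1 library per pup, such a call compares these 2 libraries only.

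Wnt7b (chromosome 15, 85535437-85582473, minus strand), known as a ligand of epithelia such as skin and lung, had 96 counts in replicate 1 and 0 in replicate 2. It was at least 22.0-fold higher in replicate 1 by its counting interval, and the ratio against the 3 counts that a count of 0 allows in replicate 2 was 27.6. Wnt3, known from limb ectoderm and hair follicle, had 45 and 5 counts and was 7.77-fold higher in replicate 1 (interval 3.09 to 25.1). Wnt10a, known from tooth and hair, had 20 and 5 counts and was 3.45-fold higher (1.26 to 11.8). All 3 were low in level, and the widths of the intervals follow from the few counts.

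Wnt2 had 200 and 75 counts and was 2.30-fold higher in replicate 1 (1.76 to 3.04). Wnt6, the neighbour of Wnt10a, had 118 and 50 counts and was 2.04-fold higher (1.45 to 2.89), just past the limit. Wif1 (chromosome 10, 121033960-121100650, plus strand) had 296 and 97 counts and was 2.63-fold higher (2.09 to 3.35). Only Wif1 had a whole interval beyond 2-fold among these 3.

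In the other direction, Notum had 79 and 148 counts and was 2.17-fold higher in replicate 2 (1.64 to 2.89). Its call ended when the counts were scaled by the ERCC spike-ins (log2 ratio 0.87) or when TPM were compared (0.94), instead of 1.12. These scalings moved the median log2 ratio of all genes to -0.26 and -0.15, from -0.01. Exons of the antisense genes Notumos and Myadml2os cover 29.4% and 8.72% of the exonic bases of Notum. The libraries are not stated to keep strand, so reads there cannot be told apart. The antisense genes were listed at 0.35 and 0.25 TPM and at 0.94 and 1.11 TPM.

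Below the limits lay Wnt16, 1.96-fold higher in replicate 2 (1.34 to 2.90), and Fzd1, 1.64-fold higher in replicate 1 (1.40 to 1.91). Rspo1, with 1 count in replicate 1 and 17 in replicate 2, had too few counts to be called, and its ratio of 19.7 has an interval from 3.09 to 823. None of the 4 leading ligands was called, with log2 ratios of 0.21 for Wnt11, 0.33 for Wnt4, 0.50 for Wnt9a and 0.04 for Wnt5a. Sfrp2 was 1.20-fold higher in replicate 1 (1.14 to 1.27).

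**Figure D3:**
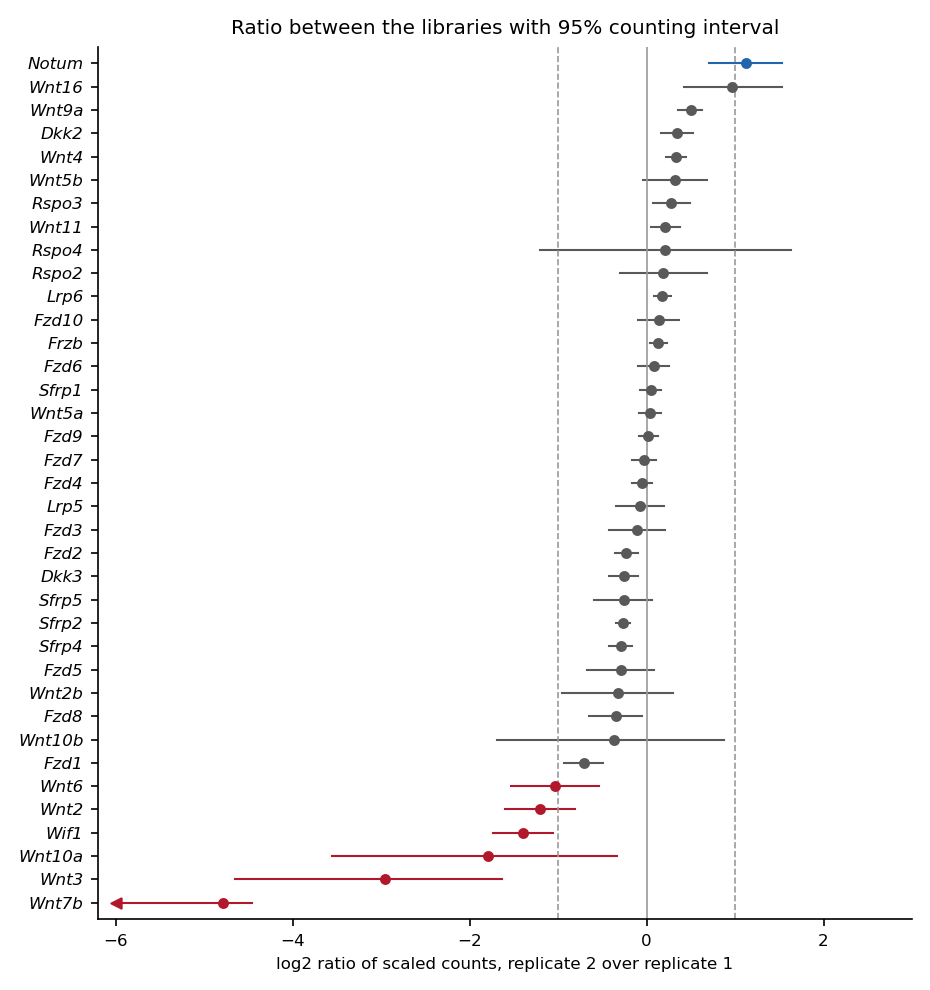
Log2 ratio of TMM-scaled counts, replicate 2 over replicate 1 (horizontal), for the 37 genes with a mean count of at least 10, with 95% counting intervals as lines. Dashed lines mark 2-fold, red marks the 6 genes called higher in replicate 1 and blue Notum, and the arrow on Wnt7b marks a ratio set by 0 counts in replicate 2. The points of the other 30 genes lie between the dashed lines.

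The marker lists of other tissues moved between the pups in the direction of the 6 genes. Of the epidermis and hair follicle markers, 12 of 13 with enough counts were higher in replicate 1, with Krt1 at 164.05 and 0.26 TPM, Krt10 at 104.01 and 3.79 TPM and Lor at 67.55 and 0.04 TPM, and the median log2 ratio was -7.08. In replicate 2 only 2 of the 14 markers reached 1 TPM, and Flg was at 0 counts. The markers above 1 TPM there were Krt10 and Trp63, the latter at 6.44 and 4.88 TPM and not called.

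Cartilage markers were higher in replicate 1 in 13 of 14 cases (median log2 ratio -3.40), with Col2a1 at 24.09 and 0.27 TPM, and Snorc was at 0 counts in replicate 2. All 10 genes of the adipocyte list were higher in replicate 1 (median -2.86). By level they were led by Car3 (3199.95 and 1403.38 TPM), Fabp4 (2591.34 and 786.85 TPM) and Cfd (1499.19 and 39.99 TPM). Car3 is not confined to fat, so its level cannot be read as that of fat alone. Bone markers summed to 82.6 and 39.0 TPM (4 of 8 higher in replicate 1 and 1 in replicate 2, with Mepe at 0 counts in both pups), and the 6 tendon markers to 197 and 85.1 TPM (3 higher in replicate 1). The part of these tissues in the pup differences of Wnt7b, Wnt3, Wnt10a, Wnt2, Wnt6 and Wif1 was not tested.

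Lists of the cell types that belong to muscle differed less. None of the 12 skeletal muscle markers, 11 fibroblast, 10 endothelial, 8 smooth muscle, 8 Schwann cell or 11 leukocyte markers with enough counts was called, with median log2 ratios of 0.28, -0.29, 0.03, -0.04, -0.02 and -0.57. Summed levels were 6511 and 4667 TPM for the fibroblast list, 388 and 353 TPM for endothelium, 396 and 363 TPM for smooth muscle, 472 and 452 TPM for Schwann cells and 1285 and 700 TPM for leukocytes. Few genes carried some of these sums, which therefore cannot be read as the amount of a cell type. Acta2 (288.1 and 267.99 TPM) led the smooth muscle list. Pmp22 (231.22 and 197.64 TPM) and Ncam1 (150.62 and 174.13 TPM) led the Schwann cell list. The mast cell genes Cma1 (566.78 and 315.44 TPM), Cpa3 (484.84 and 260.69 TPM) and Mcpt4 (150.78 and 69.17 TPM) led the leukocyte list. The 7 satellite cell markers summed to 114 and 126 TPM, with a median of 0.39 and Calcr called higher in replicate 2. Muscle and satellite cell lists thus leaned to replicate 2, as Notum did, and their part in its difference was not tested either.

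**Figure D4:**
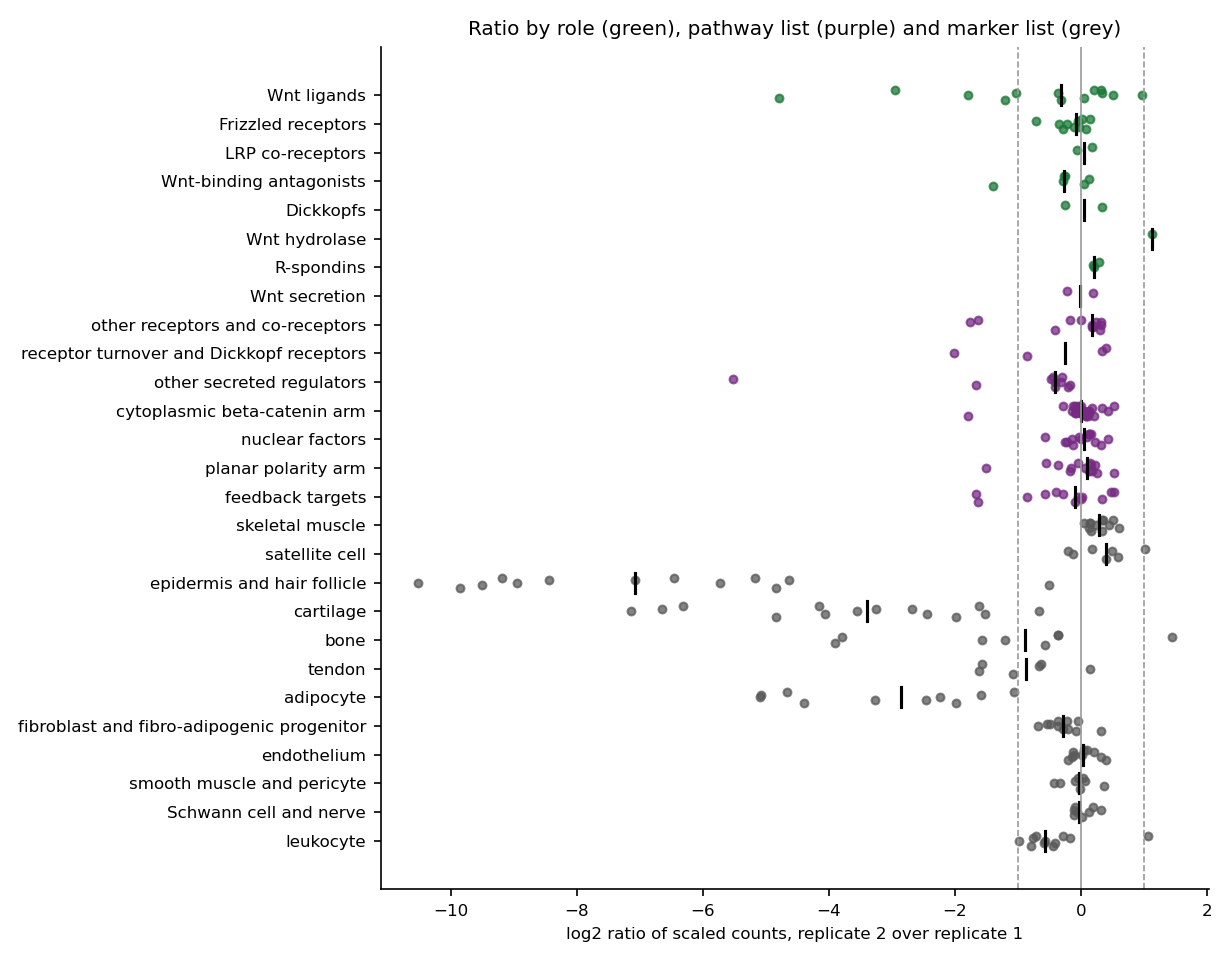
Log2 ratio of TMM-scaled counts, replicate 2 over replicate 1 (horizontal), for each gene with a mean count of at least 10, by role (green), pathway list (purple) and marker list (grey), with a black bar at each list's median. Dashed lines mark 2-fold. Epidermis, cartilage and adipocyte markers lie far to the left with medians of -7.08, -3.40 and -2.86, and Wnt ligands have a left tail around a median of -0.32.

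Other genes of the pathway were read from lists grouped by step. Both secretion genes were present, with Wls, the carrier that brings Wnts to the surface, at 45.48 and 35.29 TPM, and Porcn, which adds the lipid, at 3.37 and 3.41 TPM. Of 13 other receptors and co-receptors, 11 reached a mean of 1 TPM (11 in replicate 1 alone and 10 in replicate 2 alone). They were led by the glypicans Gpc3 (339.31 and 308.80 TPM) and Gpc4 (102.30 and 109.60 TPM) and by Tspan12 (85.75 and 96.22 TPM), a partner of Fzd4. Lgr5 and Lgr6, receptors of R-spondins, were the only ones of the 12 with enough counts to be called, at 1.92 and 0.37 TPM and at 0.72 and 0.19 TPM. Both were higher in replicate 1.

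Among the 4 receptor turnover and Dickkopf receptor genes, Kremen1 at 35.54 and 42.50 TPM and Znrf3 at 6.02 and 6.99 TPM led. Kremen2 was called higher in replicate 1, at 1.24 and 0.28 TPM. Other secreted regulators were led by Igfbp4 (360.64 and 242.08 TPM), Serpinf1 (204.02 and 139.75 TPM) and Bgn (116.12 and 84.66 TPM). Of these 12 regulators, 9 reached a mean of 1 TPM (9 in replicate 1 alone and 7 in replicate 2 alone). Of the 10 with enough counts, Dkkl1 (4.45 and 0.09 TPM) and Apcdd1 (1.72 and 0.50 TPM) were called, both higher in replicate 1, and the list's median log2 ratio was -0.42. Named calls in these extracellular lists were thus all towards replicate 1. That was also the commoner direction over all genes, with 4.95% called higher in replicate 1 and 1.48% in replicate 2.

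Inside the cell the arm was more even between the pups. Of 26 cytoplasmic genes, 24 reached a mean of 1 TPM (25 in replicate 1 alone and 24 in replicate 2 alone). Csnk1a1, a kinase that primes beta-catenin for destruction, was at 163.13 and 146.62 TPM. Ctnnb1, beta-catenin itself, was at 106.84 and 93.30 TPM, and the inhibitor Ctnnbip1 at 100.16 and 79.93 TPM. Only Frat1 was called (1.39 and 0.37 TPM), and the median log2 ratio was 0.01. All 14 nuclear factors reached 1 TPM and none was called (median 0.04). They were led by the corepressor Aes (506.42 and 500.51 TPM), Tcf7l2, the highest of the TCF/LEF factors, at 47.72 and 44.58 TPM, and the beta-catenin cofactor Pygo2 (15.68 and 12.66 TPM).

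Of 14 planar polarity genes, 11 reached a mean of 1 TPM (11 in replicate 1 alone and 10 in replicate 2 alone). They were led by Fuz (14.33 and 14.61 TPM), Prickle1 (11.82 and 12.54 TPM) and Prickle3 (4.43 and 4.53 TPM), and Celsr1 was called higher in replicate 1 (0.17 and 0.05 TPM). Of 13 feedback targets of the beta-catenin arm, 12 reached a mean of 1 TPM (11 in replicate 1 alone and 10 in replicate 2 alone). The list was led by Ccnd1 (45.12 and 29.84 TPM), Myc (24.42 and 18.89 TPM) and Tnfrsf19 (7.69 and 6.85 TPM). Lgr5 and Apcdd1, which also stand in lists above, were its calls, and its median was -0.09. Axin2, the most used readout of that arm and picked out after its values were seen, was at 2.77 and 4.24 TPM and was not called (log2 ratio 0.53, interval 0.27 to 0.80). Feedback targets thus did not move as 1 group between the pups.

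Transcript tables were read for the 15 genes at a mean of 5 TPM or more, of which 9 have 1 transcript model. In 14 of the 15 the same transcript led in both pups, with at least 50% of the gene's TPM. For the 9 genes with 1 model this could not be otherwise. Sfrp2-201 held 99.62% and 99.49% of the Sfrp2 level, and Frzb-201 held 86.39% and 86.21% of Frzb. Lrp6-201, with 23 exons, held 89.71% and 89.23%, and Wnt9a-202 held 96.50% and 93.88%. In these 4 genes 1 protein-coding form made up most of the level.

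The Wnt11 level was assigned to forms from both starts shown above. Wnt11-205, whose first base is chromosome 7, 98838845, at the second start shown above, held 58.10% of the level in replicate 1 and 67.87% in replicate 2. Wnt11-202, annotated as a target of nonsense-mediated decay, begins at 98835112, at the first start, and held 33.57% and 24.47%. Wnt11-204, annotated in the same way, begins at 98838898 and held 5.44% and 4.74%. The second start, whose window lacks the TCF/LEF and TATA letters of the first, was therefore assigned the larger share in both pups. These shares rest on the quantifier's split of reads between overlapping forms, and start sites were not measured.

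Wnt5a was the gene without 1 leading form. By TPM, Wnt5a-201 held 43.18% and 52.11% and Wnt5a-202 held 45.43% and 38.70%, so that the lead changed between the pups. By expected counts, which are not divided by length, the longer Wnt5a-201 led in both, with 724 and 718 counts against 391 and 274. Shares between forms that overlap rest on the quantifier's split of shared reads.

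Exons on the opposite strand overlapped 8 of the 46 genes. Gm26771 covers 16.1% of the exonic bases of Sfrp2 and was at 0.91 and 0.96 TPM, far under the 61.98 and 47.05 TPM of Sfrp2. AU022754 covers 6.61% of Wnt7b and was at 0.02 and 0 TPM. The others, beside Notum, were Wnt11, Wnt5a, Fzd6, Fzd5 and Rspo3, with 3.15% to 17.8% of their exonic bases covered.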

How the data were processed

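Skeletal muscle RNA of 2 newborn mice was sequenced (replicates 1 and 2), from 10 ng RNA of more than 200 nt per library, per the labels. Build mm10 and GENCODE M4 are named in the deposited notes; which aligner and quantifier were run is not given in the sources used here. The authors deposited expected counts per gene and transcript, which are estimated reads after shared reads are split, and TPM, per the file headers. Isoform shares of gene TPM were given by the authors in percent, per the file headers. Deposited interval bounds, read as a score, were not used.

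Names and positions came from GENCODE M21 by ID without version, and 42462 of 43346 gene IDs matched, with 0.146% and 0.133% of counts unmatched in replicates 1 and 2. The 96 ERCC rows and 26248 numbered rows (36 and 29 counts) stayed out of library sizes. Expected counts were rounded to whole numbers and scaled by TMM, with edgeR 4.0.16 under R 4.3.3. DESeq2 1.42.0 size factors, ERCC scaling, TPM ratios, other count and fold limits and CPM were alternatives. Intervals came from scipy 1.17.1 and the ratio rule was tested on simulated data. The SD over 2 pups of 1 pregnancy may be partly technical.

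All genes of the rule could be named, then from each pathway list the 3 highest by mean TPM and every called gene, and from each marker list the 3 highest and every gene at 0 counts in both pups. Axin2, Flg, Snorc and Calcr were chosen after their values were seen. The genes and lists were chosen with earlier results of these data known. Promoters came from a RefSeq table on GRCm38.p6, matched by symbol. No protein sequence was used here.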

Additional observations from a re-analysis of the deposited data

How the results depend on the processing

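Limits: 2 libraries of 1 group allow no test, and counting intervals leave out the spread between animals. With a limit of 5 TPM in place of 1, 15 genes passed. By CPM, with no length correction, antagonists over ligands came to 0.72 and antagonists over receptors to 0.27 on the log2 scale. Over genes with a mean count of at least 10 the median level was 3.18 TPM. Genes higher in replicate 1 numbered 2 with a mean count of at least 100 (Wnt2 and Wif1, where 2.31% of all genes passed) and 2 at 4-fold (Wnt7b and Wnt3, against 2.55%). Genes higher in replicate 2 numbered 0 with ERCC scaling (against 0.765% of all genes), 0 by TPM ratio (1.12%) and 0 at 4-fold (0.229%), when Notum was lost. They numbered 2 with no minimum count, which added Rspo1 (1.91%), and 2 at 1.5-fold, which added Wnt16 (3.26%). By single pup, the genes at 1 TPM ranged from 28 to 29, antagonists over ligands from 1.04 to 1.33, antagonists over receptors from 0.76 to 0.88 and receptors over ligands from 0.28 to 0.45. A ratio between the pups has no value without a pup. No direction was reversed among the values recomputed, and each of the 6 genes higher in replicate 1 stayed past 2-fold under ERCC scaling, DESeq2 size factors, posterior mean counts and TPM ratios. No paired analysis was possible because there is 1 group only.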
